A study of Homo sapiens with 6 samples.

Results

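Cadherins and protocadherins are cell surface proteins, most of them transmembrane, that join neighbouring cells through calcium-binding extracellular repeats. The genes described here are the protein coding genes of the deposited count table whose symbol starts with CDH or PCDH, 76 of the 24526 genes in the table. They were sorted by family into 10 classical cadherins (5 of type I and 5 of type II), 51 clustered protocadherins (13 PCDHA, 16 PCDHB and 22 PCDHG genes) and 15 others (8 cadherins and 7 protocadherins). The cells were WM266.4, an established human melanoma line, in 3 cultures transfected with a negative control siRNA (neg.si) and 3 transfected with an siRNA against the kinase RIPK4 (RIPK4.si). RNA of both groups was taken 48 h after transfection. An siRNA guides the cleavage of transcripts that pair with it. Because a single siRNA was used against RIPK4, other transcripts it touches cannot be told apart from those that respond to RIPK4. The study's methods describe the 3 libraries of a group as biological replicates.

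Classical cadherins bind the same cadherin on the next cell and hold on to the actin cytoskeleton through catenins. E-cadherin (CDH1) links melanocytes to keratinocytes in the epidermis, and melanoma cells often carry N-cadherin (CDH2) instead. The clustered protocadherins are encoded by 3 neighbouring gene arrays on chromosome 5, in which each variable first exon has a promoter of its own, and they are best known for giving each neuron a surface identity. In the PCDHA and PCDHG arrays the first exons are spliced to shared constant exons, whereas each PCDHB gene is made of a variable exon alone.

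Whole-number counts summed to between 28464057 and 31688095 per library, and the unit of a level here is CPM, a count relative to the TMM-normalized size of its library. Between genes, CPM was divided by the kilobases of exon that no other annotated gene holds. RIPK4 checked the labels: its level was 85.8, 76.5 and 54.7 CPM in neg.si and 19.9, 16.7 and 21.5 CPM in RIPK4.si. Its log2 fold change, always given here as RIPK4.si over neg.si, was -1.90 (SE 0.203, adjusted p = 0.0102 by the quasi-likelihood test of edgeR, adjusted by the Benjamini-Hochberg method, which gives every adjusted p below unless DESeq2 is named). The adjusted p rose to between 0.0622 and 0.106 without neg.si replicate 2 or without any 1 of the RIPK4.si replicates. Summed markers of the melanocyte lineage stood at 3574 to 4012 CPM in neg.si and 2635 to 2759 CPM in RIPK4.si, and all 8 markers were detected. edgeR called 1 of the 8 lower, the melanosome protein PMEL (0.393% of all genes tested were called lower). DESeq2 called 3 lower, PMEL and the pigment enzymes TYR and DCT (1.38% of all genes), and at an unadjusted p under 0.05 by edgeR 4 were lower, these 3 and S100B (6% of all genes). The other way, 3 of the 8 had a log2 fold change above zero and were called by neither tool: TYRP1 (0.36), MLANA (0.06) and MITF (0.04). The part of these marker differences in the results below was not tested. Summed markers of other cell types lay at 24.8 to 34.1 CPM in neg.si and 29.3 to 38.0 CPM in RIPK4.si for keratinocytes and epithelium (6 of 7 in the table, KRT5, KRT14 and EPCAM near 0). Of these, KRT8, KRT10 and KRT18 were tested, and KRT10 had an unadjusted p under 0.05 (log2 fold change 0.41, adjusted p = 0.438, no overlap). For endothelium they lay at 4.13 to 5.19 CPM (4 of 4 in the table). Those of fibroblasts lay at 512 to 1041 CPM (5 of 5, nearly all of it COL1A2, with DCN and COL1A1 near 0). The rank correlation of a gene's level with its GC content, over genes and relative to the mean of the libraries, was 0.555 in neg.si replicate 1 and -0.547 in neg.si replicate 3. It lay between -0.079 and 0.165 in the other 4 libraries.

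The most abundant members in WM266.4 were PCDHGC3, CDH19, CDH2 and PCDH7, and edgeR called none of the 50 genes tested. Of the 76, 50 passed edgeR's filter on low counts: 6 classical cadherins, 38 clustered protocadherins (7 PCDHA, 15 PCDHB and 16 PCDHG) and 6 others. The other 26 had at most 26 counts in any library and were not tested. Of the 50, 0 had an adjusted p under 0.05, against 0.767% of all 16297 genes tested (0.374% higher and 0.393% lower in RIPK4.si). At an unadjusted p under 0.05 there were 5, 4 higher and 1 lower in RIPK4.si, against 10.8% of all genes (4.85% higher and 6% lower). DESeq2, run on the same counts, called 1 of them lower, PCDHB15, and 0 higher, against 2.78% of all genes called in either direction (1.38% lower and 1.39% higher). The median log2 fold change of the 50 was 0.02, against -0.02 over all genes tested, with 27 members above and 23 below zero. When 1 library was dropped this median ranged from -0.03 (neg.si replicate 3) to 0.12 (RIPK4.si replicate 2), and it was also below zero, at -0.02, when RIPK4.si replicate 1 was dropped.

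**Figure D1:**
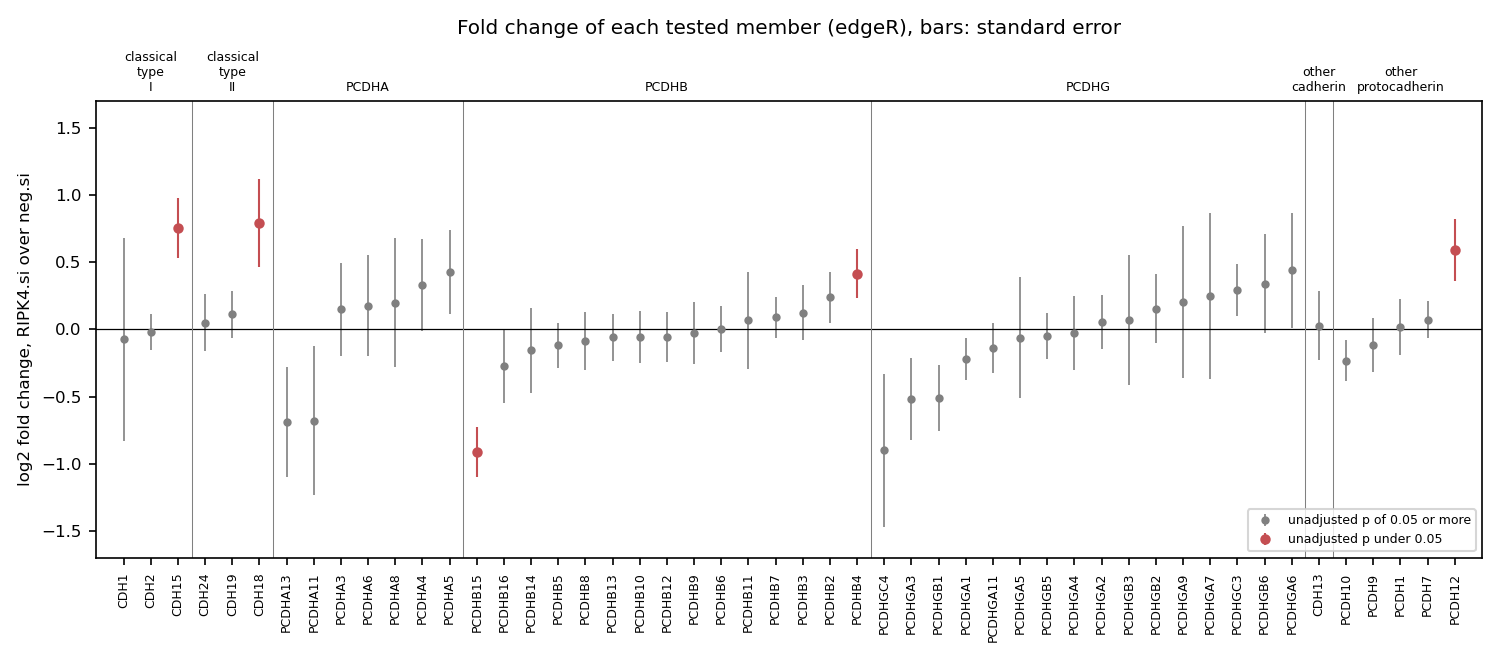
The log2 fold change (RIPK4.si over neg.si, y axis) of the 50 tested members with its standard error as a bar, grouped by family along the x axis. The 5 members in red, PCDHB15 below zero and CDH15, CDH18, PCDHB4 and PCDH12 above it, had an unadjusted p under 0.05, and no member had an adjusted p under 0.05.

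For 9 of the 50 members the levels of the groups did not overlap, against 17.6% of all genes tested. CDH15, CDH18, PCDH12, PCDHB2 and PCDHB4 were higher in every RIPK4.si library (8.23% of all genes) and PCDH10, PCDHB15, PCDHGA1 and PCDHGA3 lower in every one (9.4% of all genes). PCDHB2, PCDH10 and PCDHGA3 are named here because of their values, outside the rule for named genes. A lower transcript level in bulk RNA cannot be told apart from fewer cells that express the gene.

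Per kilobase of exon, the highest level of all members belonged to PCDHGC3, a protocadherin of the gamma array with a widely used promoter, at 42.2 ± 8.05 CPM per kb (SD, n = 6 libraries). CDH19, a type II cadherin known from the neural crest and Schwann cell lineage, followed at 31.0 ± 4.36 CPM per kb. CDH2, N-cadherin, came next at 25.1 ± 1.03 CPM per kb and PCDH7, a protocadherin outside the arrays, at 18.6 ± 1.04 CPM per kb. CDH19, at 24.5 to 36.4 CPM per kb, had a range that overlapped those of PCDHGC3 (28.9 to 51.4) and CDH2 (23.8 to 26.2). Within libraries, CDH19 and PCDHGC3 each lay above CDH2 in every one. PCDHGC3 lay above CDH19 in all but neg.si replicate 3 (28.9 against 36.4), the library with the most negative GC correlation. PCDH7, at 17.4 to 20.5 CPM per kb, was below all of them and above PCDHB5 (8.77 to 12.1) and PCDHB6 (7.38 to 10.3). The ranges of PCDHB5 and PCDHB6 overlapped, with PCDHB5 above PCDHB6 within every library.

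**Figure D2:**
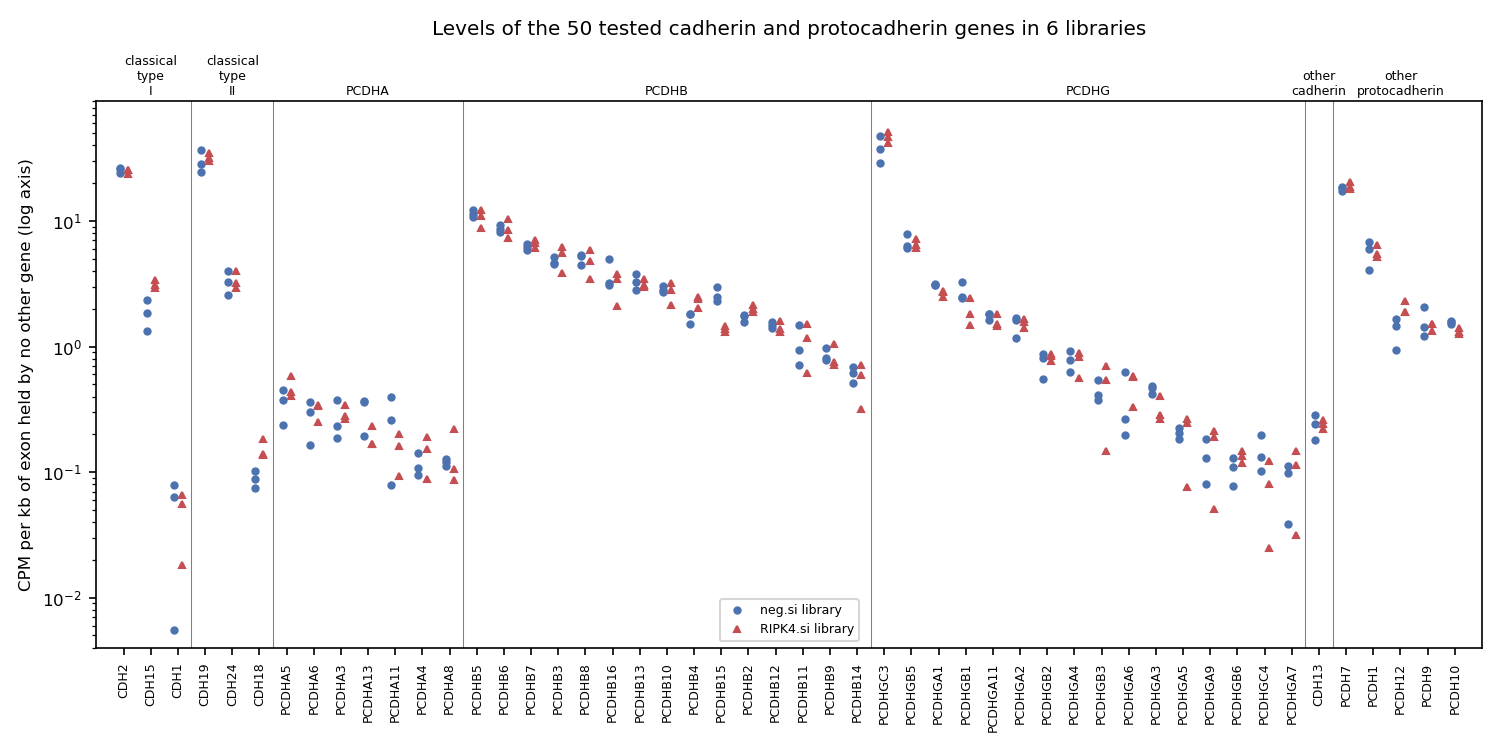
Level of each tested member in each of the 6 libraries, in CPM per kilobase of exon held by no other gene (log axis), ordered within families by mean level. PCDHGC3, CDH19, CDH2 and PCDH7 stand above 17 CPM per kb in all libraries, the PCDHA genes stay below 1, and the neg.si and RIPK4.si points of most genes overlap.

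Among type I cadherins, CDH2 made up 94.5% of the summed CPM and was level between groups. Its level was 198, 217 and 214 CPM in neg.si and 197, 212 and 210 CPM in RIPK4.si, so that the 2 groups overlapped throughout. The log2 fold change was -0.02 (SE 0.135, adjusted p = 0.984). E-cadherin (CDH1) was near the limit of detection, with 14, 11 and 1 counts in neg.si and 11, 3 and 10 counts in RIPK4.si. At this depth its log2 fold change had an SE of 0.757 (value -0.07, adjusted p = 0.990), and a difference between groups was not detectable. P-cadherin (CDH3), another cadherin of epithelia, had 8, 0 and 0 counts in neg.si and 3, 4 and 3 counts in RIPK4.si and was not tested, and CDH4 (R-cadherin) had at most 7 counts in a library.

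CDH15 (M-cadherin, known from skeletal muscle, ENSG00000129910 at chr16:89171748-89195492 on GRCh38, plus strand) was the type I member with the largest difference. Counts were 340, 259 and 195 in neg.si and 459, 394 and 443 in RIPK4.si. That is 10.98, 8.62 and 6.14 CPM against 15.6, 13.6 and 14.2 CPM, with every RIPK4.si library above every neg.si library. The log2 fold change was 0.76 (SE 0.224, unadjusted p = 0.00779, adjusted p = 0.205), and DESeq2 gave an adjusted p of 0.0707. The exons of CDH15 are 66.0% GC, the neg.si libraries stood in the order of their GC correlation, and with each library's trend on GC content removed the log2 fold change was 0.74 (adjusted p = 0.0314). In that fit 1.58% of all genes were called higher and 3.28% in either direction, and 2 of the 50 members were called, CDH15 and PCDHB15. With the replicate block as well, the adjusted p of CDH15 was 0.0498. With 1 library left out and no GC step, its log2 fold change lay between 0.57 and 0.99 and its adjusted p between 0.0870 and 0.609.

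**Figure D3:**
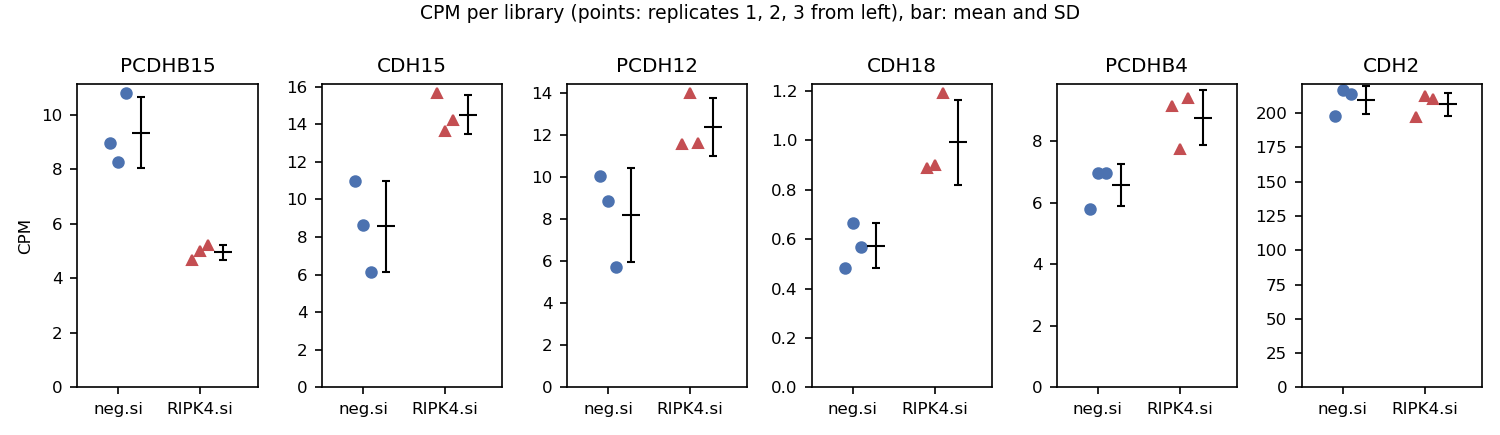
CPM in each library (points, replicates 1 to 3 from left to right) with the mean and SD of each group as a bar, for the 5 members with an unadjusted p under 0.05 and for CDH2. PCDHB15 lies at 8.26 to 10.8 CPM in neg.si and 4.67 to 5.21 CPM in RIPK4.si, CDH15, PCDH12, CDH18 and PCDHB4 are higher in all 3 RIPK4.si libraries, and CDH2 overlaps.

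CDH19 made up 94.1% of the summed CPM of the type II cadherins, at 168, 195 and 250 CPM in neg.si and 206, 240 and 217 CPM in RIPK4.si. The RIPK4.si libraries lay inside the range of neg.si (log2 fold change 0.11, SE 0.176, adjusted p = 0.917). With 1 library left out the log2 fold change of CDH19 lay between 0.0086 and 0.29. Its exons are 34.3% GC, and its neg.si levels rose as the libraries' GC correlation fell. CDH24 overlapped between groups, at 9.70 to 14.9 CPM in neg.si and 10.9 to 15.02 CPM in RIPK4.si (log2 fold change 0.05, SE 0.212, adjusted p = 0.976). CDH18, known from the nervous system, had 15, 20 and 18 counts in neg.si and 26, 26 and 37 counts in RIPK4.si. The groups did not overlap, but with so few counts its log2 fold change of 0.79 had an SE of 0.327 (unadjusted p = 0.0375, adjusted p = 0.410). CDH7 and CDH10 had at most 3 counts in a library. Over the 6 classical cadherins tested the median log2 fold change was 0.08, with 4 above and 2 below zero, and it was 0.34 without neg.si replicate 1.

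PCDHB15 was the member with the smallest adjusted p (ENSG00000113248, chr5:141245395-141249365 on GRCh38, plus strand, the last gene of the PCDHB array). It had 278, 248 and 343 counts in neg.si and 137, 144 and 162 counts in RIPK4.si. Its level was 8.98, 8.26 and 10.8 CPM in neg.si and 4.67, 4.98 and 5.21 CPM in RIPK4.si, a mean of 9.34 ± 1.31 against 4.95 ± 0.271 CPM (SD, n = 3), and the groups were far from overlapping. The RIPK4.si mean was 53.0% of the neg.si mean. The log2 fold change was -0.92 (SE 0.187, unadjusted p = 0.000779, adjusted p = 0.0711), which missed the threshold. DESeq2 put it below the threshold (adjusted p = 0.00512), as did the removal of the GC trend (adjusted p = 0.0235, with 1.7% of all genes called lower). When any 1 library was dropped, its log2 fold change lay between -0.98 and -0.79 and the adjusted p between 0.0635 and 0.381.

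The other 14 tested PCDHB genes had fold changes on both sides of zero, and the PCDHB median was -0.06 with 6 above and 9 below zero. PCDHB5, the most abundant with 17.9% of the array's summed CPM, was at 33.3, 35.3 and 31.6 CPM in neg.si and 35.3, 25.5 and 31.6 CPM in RIPK4.si (log2 fold change -0.12, SE 0.167, adjusted p = 0.912). PCDHB6 (log2 fold change 0.00, SE 0.171, adjusted p = 0.998) and PCDHB7 (0.09, SE 0.151, adjusted p = 0.925) overlapped between groups in the same way. PCDHB4 was the member with the largest positive value in the array: 5.78, 6.96 and 6.96 CPM in neg.si and 9.13, 7.75 and 9.39 CPM in RIPK4.si, without overlap. Its log2 fold change was 0.42 (SE 0.183, unadjusted p = 0.0486, adjusted p = 0.455). PCDHB15 therefore took 4.60% to 5.82% of the array's CPM in neg.si and 2.35% to 3.37% in RIPK4.si, and PCDHB4 took 3.19% to 3.88% and 4.59% to 5.25%. The array as a whole summed to 182 ± 3.14 CPM in neg.si and 177 ± 26.3 CPM in RIPK4.si (SD, n = 3). PCDHB1, which differs in sequence from the rest, had at most 7 counts in a library and was the only PCDHB gene not tested.

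Reads of PCDHB genes could be split between near-identical copies. Of the windows of 100 bases in PCDHB15 transcripts, 5.54% were found unchanged in another PCDHB gene or pseudogene, against 0% in PCDHB1 and 25.6% in PCDHB8, and 4.47% in PCDHB4. Of PCDHB15's exon bases 9.54% lie in another annotated gene on the same strand. How counting treated such reads is not given in the sources used here.

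The promoters of the array are shown because the first exon a cell transcribes in these clusters is set by its own promoter. Promoter sequences came from RefSeq (GRCh38.p14, 250 bases before to 50 after the start) and matched 11 PCDHA, 14 PCDHB and 20 PCDHG genes. Around the core CGCT of the sequence element known from these promoters, in capitals, the plus strand read 5′ to 3′ as follows for the PCDHB genes with the lowest and the highest fold change and the most abundant one, and for PCDHGC3 of the gamma array. In each promoter the CGCT most like the others of its array was taken.
PCDHB15, chr5:141245317-141245346: caacgcatggtggCGCTgcaggctaaggct
PCDHB4, chr5:141121726-141121755: agacgcagggtggCGCTgcaggctaagttg
PCDHB5, chr5:141135182-141135211: ggacgcctggtggCGCTgcaggctaagagt
PCDHGC3, chr5:141475883-141475912: ggactctgtgtgcCGCTgtcggccaatgaa
Over the 22 bases centred on CGCT, PCDHB15 equalled the PCDHB consensus at 22, and PCDHB4 and PCDHB5 at 21. The gene with the lowest and that with the highest fold change carried nearly the same letters here. The windows were picked for their likeness within the array, so nothing is read from this. On either strand, the 8 bases GTGGCGCT, read off the PCDHB windows themselves, occurred in 13 of 14 PCDHB promoters, in 0 of 11 PCDHA and 0 of 20 PCDHG promoters, and in 1.15% of the 35116 promoters of that length. The PCDHA counterpart ATGTCGCT occurred in 8 of 11 PCDHA promoters and 0.234% of all, and the PCDHG counterpart GCGCCGCT in 10 of 20 PCDHG promoters and 3.17% of all.

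**Figure D4:**
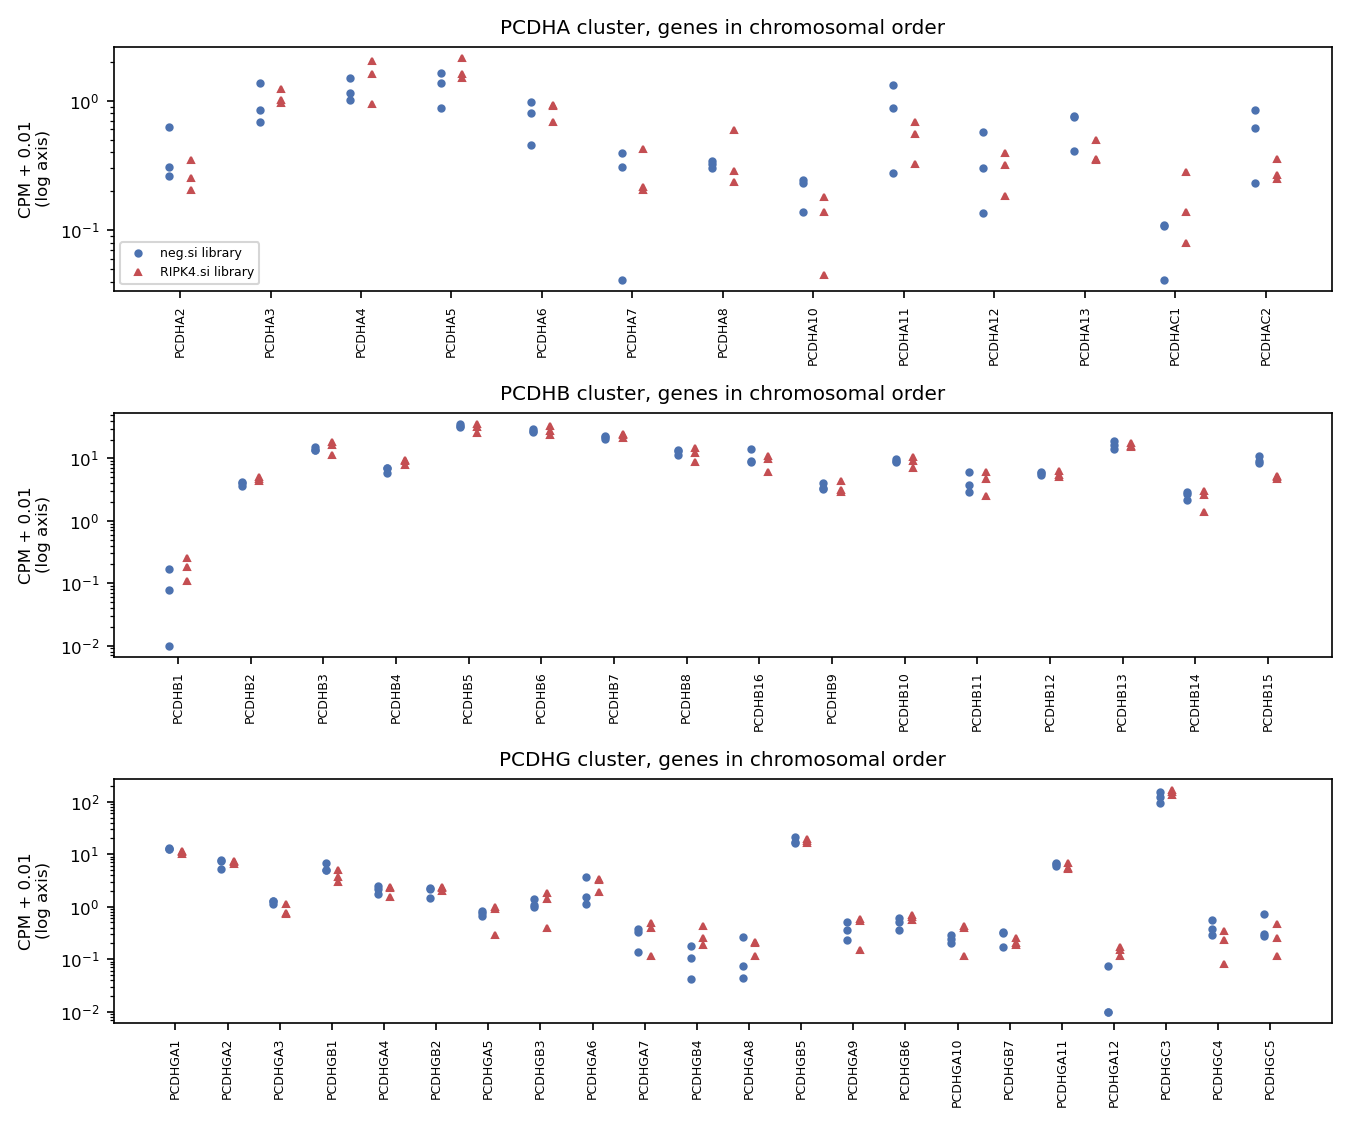
CPM + 0.01 (log axis) of every PCDHA, PCDHB and PCDHG gene in each library, with genes in their order along chromosome 5. PCDHGC3 lies above all other genes of its array, PCDHB15 is the PCDHB gene whose RIPK4.si points stand clear below neg.si, and most other genes overlap.

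PCDHA genes were low. The array summed to 7.74 ± 0.161 CPM in neg.si and 7.78 ± 1.12 CPM in RIPK4.si (SD, n = 3), and the most abundant gene, PCDHA5, was at 0.872, 1.37 and 1.64 CPM in neg.si and 1.60, 1.49 and 2.12 CPM in RIPK4.si. The groups overlapped (log2 fold change 0.43, SE 0.313, adjusted p = 0.746). PCDHA4 (log2 fold change 0.33, SE 0.345, adjusted p = 0.854) and PCDHA3 (0.15, SE 0.345, adjusted p = 0.952) overlapped as well. The median over the 7 tested was 0.18, with 5 above and 2 below zero. The SE of a single gene had a median of 0.376, so that a difference of that size in 1 gene was not detectable here. PCDHA genes share between 21.4% and 63.7% of their exon bases with other genes, among them the constant exons, and PCDHG genes between 27.5% and 64.4%. Reads from those exons belong to no single gene. The sums are given beside single genes, and they do not recover reads that counting assigned to no gene.

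The PCDHG array summed to 185 ± 29.3 CPM in neg.si and 210 ± 12.2 CPM in RIPK4.si (SD, n = 3), and PCDHGC3 supplied 69.6% of it. PCDHGC3 was at 154, 123 and 94.1 CPM in neg.si and 151, 167 and 136 CPM in RIPK4.si. The groups overlapped, with neg.si replicate 3 lowest (log2 fold change 0.29, SE 0.195, adjusted p = 0.704). The log2 fold change was 0.13 when that library was dropped and 0.50 when neg.si replicate 1 was. The exons of PCDHGC3 are 56.5% GC, and its neg.si levels stood in the order of the libraries' GC correlation. With the GC trend removed its log2 fold change was 0.30 (adjusted p = 0.275). PCDHGB5, the next in abundance, was at 16.6 to 21.5 CPM in neg.si and 16.5 to 19.3 CPM in RIPK4.si (log2 fold change -0.05, SE 0.171, adjusted p = 0.972). PCDHGA1 was at 12.98, 12.8 and 12.7 CPM in neg.si and 11.2, 10.3 and 11.4 CPM in RIPK4.si, without overlap, but the difference was small (log2 fold change -0.22, SE 0.157, adjusted p = 0.733). The lowest value of the array, -0.90 for PCDHGC4, which was chosen after values were seen, rested on fewer than 1 CPM in each library (SE 0.570, adjusted p = 0.679). The median over the 16 tested PCDHG genes was 0.01, with 8 above and 8 below zero, and it was 0.19 without RIPK4.si replicate 2 and -0.16 without RIPK4.si replicate 3.

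Outside the arrays, PCDH7 made up 66.6% of the summed CPM of the remaining protocadherins. It was at 196, 210 and 207 CPM in neg.si and 210, 204 and 231 CPM in RIPK4.si, with overlap (log2 fold change 0.07, SE 0.137, adjusted p = 0.936). PCDH9 was at 37.7, 44.1 and 63.5 CPM against 46.6, 40.9 and 46.5 CPM (log2 fold change -0.12, SE 0.203, adjusted p = 0.928). PCDH1, a protocadherin of epithelia, was at 40.1, 35.8 and 24.0 CPM against 30.6, 38.1 and 32.5 CPM (log2 fold change 0.02, SE 0.209, adjusted p = 0.991). In both, neg.si replicate 3 stood apart from the other libraries, high for PCDH9 with 34.2% GC in its exons and low for PCDH1 with 60.1% GC. PCDH12, a protocadherin of endothelial cells, was at 10.04, 8.86 and 5.73 CPM in neg.si and 11.6, 14.0 and 11.6 CPM in RIPK4.si. The groups did not overlap (log2 fold change 0.59, SE 0.230, unadjusted p = 0.0290, adjusted p = 0.367), its log2 fold change was 0.39 without neg.si replicate 3, and the 4 endothelial markers PECAM1, VWF, KDR and TEK summed to 4.13 to 4.96 CPM in neg.si and 4.33 to 5.19 CPM in RIPK4.si. PCDH17 and PCDH11Y were below the filter.

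Of the 8 remaining cadherins only CDH13 was tested. CDH13 (T-cadherin), which lacks the transmembrane and intracellular parts and is held in the membrane by a lipid anchor, was at 2.45, 2.10 and 1.57 CPM in neg.si and 2.25, 1.90 and 2.09 CPM in RIPK4.si. Its groups overlapped (log2 fold change 0.03, SE 0.255, adjusted p = 0.989). CDH17, known from the intestine, had 2 to 10 counts in a library and CDH23, a part of the tip links of inner ear hair cells, 4 to 11. CDH26 and the 4 cadherin-related genes CDHR1, CDHR2, CDHR3 and CDHR5 had at most 12.

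Genes that work with the cadherins were read from 3 lists, and apart from STAG2 the genes named from them were chosen after their values were seen. Of 18 catenins, repressors of CDH1 and cadherin-cleaving enzymes, 15 were in the table and 14 were tested. edgeR and DESeq2 called 0 of them (0.767% and 2.78% of all genes), 1 had an unadjusted p under 0.05 (10.8% of all genes), and the groups did not overlap for 3 (17.6% of all genes). That was ADAM10, the protease that sheds the extracellular part of CDH1 and CDH2, at 329, 389 and 567 CPM in neg.si and 294, 200 and 262 CPM in RIPK4.si, without overlap (log2 fold change -0.76, SE 0.231, adjusted p = 0.219, and 0.0446 with the GC trend removed). The catenins CTNNB1 (log2 fold change 0.00, SE 0.178, adjusted p = 0.997) and CTNND1 (-0.05, SE 0.143, adjusted p = 0.967) and the CDH1 repressor ZEB2 (0.00, SE 0.146, adjusted p = 0.999) overlapped between groups. Besides ADAM10, the groups did not overlap for the alpha-catenin CTNNA1, at 458, 495 and 486 CPM in neg.si and 435, 418 and 446 CPM in RIPK4.si (log2 fold change -0.15, SE 0.137, adjusted p = 0.824). Nor did they for SNAI2, another repressor of CDH1, at 40.2, 49.6 and 55.7 CPM in neg.si and 63.6, 56.9 and 67.1 CPM in RIPK4.si (log2 fold change 0.37, SE 0.166, unadjusted p = 0.0539, adjusted p = 0.475). The median over the 14 was -0.04.

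Of 15 genes known to act on the protocadherin arrays, such as CTCF, cohesin and DNA methyltransferases, all were tested, and edgeR called 0 (0.767% of all genes), with 1 at an unadjusted p under 0.05 (10.8% of all genes) and 2 without overlap (17.6% of all genes). That gene, STAG2, a subunit of cohesin, was at 156, 195 and 242 CPM in neg.si and 91.0, 112 and 104 CPM in RIPK4.si, without overlap. Its log2 fold change was -0.95 (SE 0.187, adjusted p = 0.0629), DESeq2 called it (adjusted p = 0.00095), its only call on this list (2.78% of all genes), and with the GC trend removed the adjusted p was 0.00768. CTCF (log2 fold change -0.12, SE 0.152, adjusted p = 0.894) and the alternative subunit STAG1 (0.17, SE 0.210, adjusted p = 0.888) overlapped. The DNA methyltransferase DNMT3A was the other gene of the list without overlap, at 30.1, 32.1 and 32.1 CPM in neg.si and 26.1, 19.2 and 27.5 CPM in RIPK4.si (log2 fold change -0.37, SE 0.176, unadjusted p = 0.0616, adjusted p = 0.497). The median over the 15 was -0.01.

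Of 19 other cadherin superfamily genes, 15 were in the table and 9 were tested, and edgeR and DESeq2 called 0 (0.767% and 2.78% of all genes). At an unadjusted p under 0.05 there were 2, both lower in RIPK4.si (6% of all genes), and the groups did not overlap for 2 (17.6% of all genes). DCHS1, a giant cadherin that binds FAT4, was at 2.07, 2.10 and 1.89 CPM in neg.si and 1.23, 0.969 and 1.06 CPM in RIPK4.si, without overlap (log2 fold change -0.89, SE 0.253, adjusted p = 0.183). CLSTN3, a calsyntenin of synapses, had a log2 fold change of -0.61 (SE 0.207, adjusted p = 0.293, and 0.0412 with the GC trend removed), and FAT1, the most abundant of the FAT cadherins, one of 0.17 (SE 0.168, adjusted p = 0.842). CELSR3, an adhesion receptor of the planar polarity pathway, was the other gene without overlap, at 72.5, 69.1 and 60.2 CPM in neg.si and 74.0, 76.0 and 79.6 CPM in RIPK4.si (log2 fold change 0.19, SE 0.142, adjusted p = 0.763). The median over the 9 was 0.08.

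A further feature of the transcripts was the sequence ACAGCTT in the longest annotated 3′ UTR, chosen because an earlier reading of these data tied it to lower fold changes over all genes. It was present in 18.4% of 12978 tested protein coding genes, whose median log2 fold change was -0.09 against 0.00 for the genes without it. Among the 50 tested members 12 held it (24%): all 7 PCDHA genes, 2 of 15 PCDHB genes, 0 of 16 PCDHG genes, CDH19, CDH13 and PCDH9. Most PCDHA genes held it at the same place, in the constant last exon at chr5:141011019-141011025. The sites of the 2 PCDHB genes, on the transcript strand (GRCh38, plus strand) with the 7 bases in capitals, are given because these genes had the lowest and the highest fold change of the array.
PCDHB15, site at chr5:141248322-141248328: tttcttattcacACAGCTTgactttttgac
PCDHB4, site at chr5:141125325-141125331: tttggttttcctACAGCTTctccccatctt
These genes were picked by their fold changes and the sequence with these data known, so nothing is read from their sites. By family, the median log2 fold change with and without the sequence was -0.25 and -0.06 for PCDHB, and -0.04 and 0.05 for the other cadherins and protocadherins. It went the other way for the classical cadherins, at 0.11 with (1 gene) and 0.05 without. Over all 50 members it was 0.13 with and -0.01 without. The 7 PCDHA genes, all with the sequence, had a median of 0.18. The PCDHB value with it rests on PCDHB15 and PCDHB4, whose fold changes have opposite signs.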

How the data were processed

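The members and gene lists were chosen with earlier results of these data known. Poly(A) RNA was sequenced as paired reads on a BGISEQ-500. The authors removed adapters (Cutadapt), mapped reads to GRCh38.p13 (TopHat) and assigned read pairs to genes with HTSeq without using strand, so reads of genes overlapping on opposite strands were not separated. The deposited count values are whole and not normalized. The deposited signal values are counts divided by DESeq2 size factors, and the deposited ratio, log2 and p-value columns come from the authors' own comparison; none of these was used.

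The counts of 6 libraries were tested with edgeR 4.0.16 (TMM, its filter on low counts, quasi-likelihood test, Benjamini-Hochberg adjustment over 16297 genes, 0.05 as threshold) in R 4.3.3. The SE was the absolute log2 fold change over the square root of F. Alternatives were DESeq2 1.42.0, other normalizations and filters, the replicate number as a block, removal of each library's GC trend (lowess, span 0.3) and each library left out. The test was checked on simulated data. GENCODE v44 gave exons, 3′ UTRs and GC content, with the same coordinates as the deposited table for 47 of 76 members. Other steps used Python 3.11.15, pandas 2.3.3 and matplotlib 3.10.9.

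The genes named were CDH1, CDH2 and CDH3, members with an adjusted p under 0.05 by either tool or an unadjusted p under 0.05 by edgeR, the 3 most abundant members of each family, list genes called by either tool, and RIPK4. P-values weigh the difference between the groups against the spread between the 3 libraries within each group. The level of 1 further marker list is not reported here.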

Additional observations from a re-analysis of the deposited data

How the results depend on the processing

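The count of genes called over the whole table moved from 125 to 430 with DESeq2, 532 with the GC trend removed, 442 with the replicate block and GC trend removed together, and between 0 and 295 with 1 library left out (0 without neg.si replicate 2 or RIPK4.si replicate 1 or 3, 4 when RIPK4.si replicate 2 was dropped, and 70 and 295 when neg.si replicates 1 and 3 were). Members called went from 0 to 1 with DESeq2 (1 clustered protocadherin), to 2 with the GC trend removed (1 classical, 1 clustered) and to 2 with the block and GC trend together (1 classical, 1 clustered), and stayed at 0 with any 1 library left out. Under both GC settings 1 gene each was called among the catenins and cadherin regulators, the regulators of the protocadherin clusters and the other superfamily genes. DESeq2 and the replicate block alone each called 1 cluster regulator. Leaving out 1 library gave 0 to 1 call among cluster regulators and 0 to 1 among other superfamily genes, the log2 ratio of the summed PCDHG level (0.18) ranged from 0.07 to 0.30, log2 fold changes from 0.07 to 0.59 for PCDHA4 and from 0.23 to 0.64 for PCDHA5, and RIPK4's log2 fold change ranged from -2.06 to -1.74. Whether the replicate numbers pair the samples could not be told. Deviations of same-numbered libraries from their group means had correlations of -0.242, 0.251 and 0.346. Such deviations sum to zero within a group and carry the libraries' GC trends, so they cannot decide it. The block called 131 genes and 0 members.

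The sign of the log2 fold change turned for CDH1 with the block (0.028) and with block and GC trend (0.041), CDH2 with the GC trend removed (0.0078) and with both (0.0077), and PCDHB6 with the block (-0.0085). With 1 library left out, log2 fold changes spanned zero for CDH1 (-0.60 to 0.45), CDH13 (-0.13 to 0.20), CDH2 (-0.043 to 0.023), CDH24 (-0.088 to 0.23), PCDH1 (-0.17 to 0.19), PCDH9 (-0.25 to 0.13), PCDHA3 (-0.027 to 0.49), PCDHB5 (-0.215 to 0.011), PCDHB6 (-0.12 to 0.12) and PCDHGB5 (-0.12 to 0.091). The median log2 fold change ranged from 0.11 to 0.34 over the classical cadherins, from -0.16 to 0.19 over PCDHG, from -0.12 to 0.11 over PCDHB, from 0.07 to 0.25 over PCDHA, from -0.09 to 0.12 over all clustered protocadherins, from -0.03 to 0.12 over all members and from -0.02 to 0.13 over the other members when 1 library was dropped. The causes were not tested. With all 6 libraries kept, a further 221 values of single members and groups kept their side of the threshold or moved by less than the spread between replicates. The PCDHG median was -0.04 with the replicate block, with or without the GC trend removed, and the median over all clustered protocadherins 0.0013 with DESeq2 and 0.01 with the GC trend removed. The 26 members below the filter are limited by depth.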
